A study of Atriplex prostrata and Atriplex rosea and Atriplex prostrata x Atriplex rosea with 87 samples.

Results

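Whole leaves of Atriplex prostrata that had reached 7.5 mm were set against whole leaves of the same species that were 5 mm long. The 6 libraries of 7.5 mm leaves were 3 of leaf position 9 and 3 of leaf position 10, and the 5 mm group held 3 libraries, chosen by species, length and leaf part as the labels give them. These 9 libraries are part of 48 whose count columns could be tied to a labelled sample and of 87 samples labelled in all. The study sequenced leaf RNA of A. prostrata, a herb with C3 photosynthesis, of its relative A. rosea, which uses C4 photosynthesis, and of their F1 hybrid, at matched developmental ages. Age was expressed as the leaf plastochron index, a measure computed from leaf lengths, and the labels give -0.35 for the 7.5 mm leaves and -0.7 for the 5 mm leaves. All plants were untreated and grew in growth chambers with warm days, cooler nights and a long day, with regular fertilizer. The labels give no position for the 5 mm leaves and do not say whether leaves 9 and 10 came from the same plants. Reads were assigned to loci of Arabidopsis thaliana, a plant of another family, so each name below is that of an Arabidopsis locus and each role is the one known from Arabidopsis.

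A young leaf of a flowering plant grows first by cell division and then increasingly by cell expansion, and the change generally spreads from the tip towards the base. Ribosome production and growth-regulating factors belong to the dividing phase, while the photosystems, the enzymes of the Calvin-Benson cycle and the photorespiratory pathway accumulate as proplastids become chloroplasts. Expanding cells need new wall pectin and cuticular wax, and ethylene and jasmonate are hormones that restrain growth and mediate responses to touch, wounding and stress.

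The 9 libraries held between 9111221 and 10538027 counts. Levels are given as CPM, counts scaled to a common library total after adjustment by TMM, edgeR's scaling factor, which lay between 1.16 and 1.21 in these libraries. The leading principal component of the 9 libraries carried 34.9% of the variance and placed all 6 libraries of 7.5 mm leaves, at 0.62 to 22.1, on the other side of zero from the 3 libraries of 5 mm leaves, at -19.5, -20.1 and -31.6. The next component carried 13.2% and set the libraries numbered 2 of leaf 9, at -19.2, and of leaf 10, at -20.7, apart from the other 7. Leaf 9 and leaf 10 columns that carry the same number deviated together, with correlations of 0.208 to 0.393 between their deviations from the group means, against -0.328 to 0.0172 for pairs with other numbers. Whether these pairs share a plant was not tested, and if they do, the 6 libraries of 7.5 mm leaves stand for fewer independent samples. Counts of the 2 members of every pair of libraries differed by more than sampling noise, with a chi-square per degree of freedom of at least 1.82. No column was thus a copy of another and each was counted once, but this cannot show that they are independent plants. Rank correlations were 0.9949 to 0.9961 for leaf 9 and leaf 10 columns of the same number. They were 0.9913 to 0.9947 for pairs of libraries of the same group.

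At 7.5 mm, 171 loci were higher and 32 were lower than at 5 mm at an adjusted p under 0.05 in edgeR's quasi-likelihood test, out of 14779 loci tested, which is 1.16% and 0.217% of them and 1.37% in all. Among the loci that rose were ethylene response factors, the ACC synthases that make the ethylene precursor, calmodulin-like calcium sensors, jasmonate regulators, epimerases that supply galacturonic acid for pectin, genes induced by phosphate shortage, and 3 subunits of the chloroplast NDH complex of cyclic electron transport. Among the loci that fell were an abscisic acid hydroxylase, an auxin synthesis gene and a set of mitochondrial transcripts. Of the 171 loci that rose, 168 had all 6 libraries of 7.5 mm leaves above all 3 of 5 mm leaves, and of the 32 that fell 22 had all 6 below, against 7.23% and 7.17% of all tested loci. A fold of at least 2, which is a log2 fold change of 1.0 or more in size, was reached by 86 of the loci that rose, 0.582% of all tested, and by 22 of those that fell, 0.149%. In whole leaves, fewer cells of a type and less RNA per cell cannot be told apart.

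The count of calls depended on which libraries estimated the spread. The test above used 1 fit of all 48 libraries, in which the biological coefficient of variation, the spread between replicates beyond counting noise, was 15.7%. A fit of the 9 libraries alone gave 8.83% and called 855 loci higher, 6.12% of the 13963 tested, and 419 lower, 3% of them. Summing leaf 9 and leaf 10 counts by column number in the fit of all libraries was chosen after seeing the data. It gave 119 loci higher and 7 lower from 3 libraries against 3. Without 5 mm replicate 3 the fit of all libraries called 28 loci.

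Genes of chloroplast cyclic electron transport had the largest median change of the photosynthetic lists. The list holds subunits of the NDH complex, which returns electrons from ferredoxin to the plastoquinone pool, and the PGR5 route. Its 15 tested members all had positive log2 fold changes, with a median of 0.91 against -0.02 over all loci. In 12 of the 15 all 7.5 mm libraries were above all 5 mm libraries, against 7.23% of all tested loci. In the fit of all libraries 3 passed upward, against 1.16% of all tested loci, and 0 downward. In the fit of the 9 libraries alone 13 of the 15 passed, all upward, against 6.12% of all tested loci. When 1 library was left out of the fit of all, 0 to 4 passed. The count was 0 without 5 mm replicate 3, and 1 each without 5 mm replicate 1 or 2, leaf 9 library 1 or leaf 10 library 3. These 15 genes are nuclear. The 12 NDH subunits encoded in the plastid, counted after their values had been seen, had 10 negative log2 fold changes, a median of -0.61 and 0 calls, and their median was 0.02 without 5 mm replicate 3, whose plastid share was the highest.

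PNSL2, a lumenal subunit of NDH, had 14.2, 5.9 and 8.67 CPM in the leaf 9 libraries and 15.2, 8.09 and 11.0 CPM in the leaf 10 libraries, against 4.38, 3.32 and 2.49 CPM in 5 mm leaves. Its libraries did not overlap between lengths, and the libraries numbered 2 were the lowest of each leaf position. Its rise was 1.62 on the log2 scale with an SE of 0.33 (adjusted p = 0.00725). NDHM, a subunit of the stroma-facing part of the complex, had 18.6, 10.3 and 14.2 CPM in leaf 9 and 15.3, 10.3 and 15.4 CPM in leaf 10, against 6.34, 7.77 and 5.25 CPM in 5 mm leaves. It rose by 1.12 ± 0.27 on the log2 scale (adjusted p = 0.0242), again with no overlap. NDHO, of the same part, averaged 17.5 ± 3.21 CPM at 7.5 mm (SD, n = 6) and 9.30 ± 1.4 CPM at 5 mm (SD, n = 3), and rose by 0.91 ± 0.22 (adjusted p = 0.0233). NDHN, their partner, had a log2 fold change of 1.46 that missed the threshold (adjusted p = 0.0592). NDHM and NDHO passed in neither leaf position taken alone, and PNSL2 was the single member called with the counts of both positions summed.

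**Figure D1:**
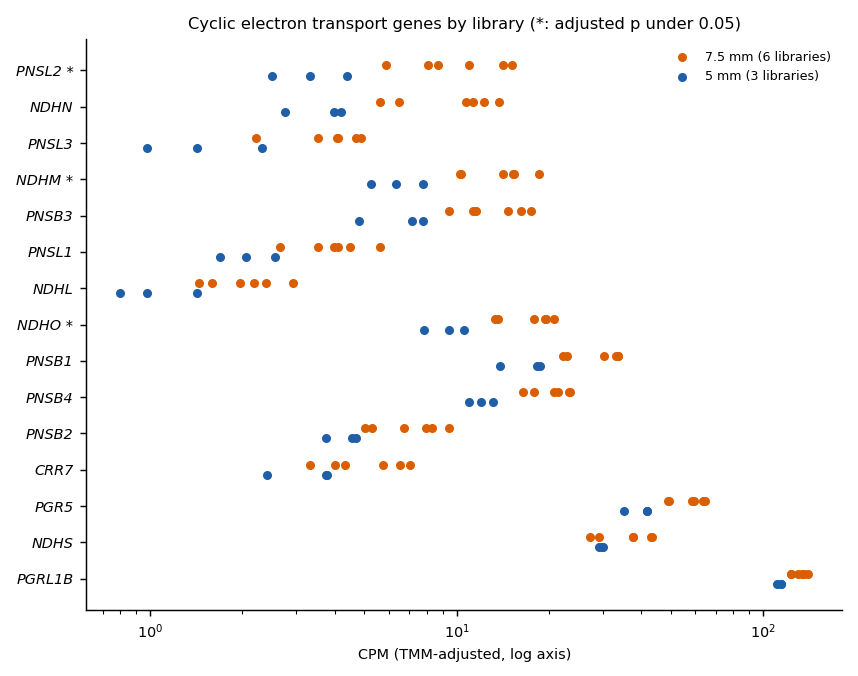
CPM (TMM-adjusted, log axis) of the 15 tested cyclic electron transport genes in A. prostrata, with the 6 libraries of 7.5 mm leaves in orange above the 3 libraries of 5 mm leaves in blue, ordered by log2 fold change, and an asterisk at the 3 genes with an adjusted p under 0.05. In 12 of the 15 genes the orange points all lie to the right of the blue ones, against 7.23% of all tested loci.

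The light-harvesting and carbon-fixing genes had small positive differences of which none was called by edgeR in the fit of all 48 libraries. The photosystem and antenna list had 25 of 25 members with positive log2 fold changes and a median of 0.29. In 23 of them all 7.5 mm libraries were above all 5 mm libraries, against 7.23% of all tested loci. The medians were 0.41 for 6 electron carriers and ATP synthase subunits, 0.41 for 17 Calvin-Benson genes and 0.34 for 20 photorespiration genes, with 0 calls in each at adjusted p in edgeR, and with 3, 5 and 8 members higher at an unadjusted p under 0.05, which 6.29% of all tested loci reached. DESeq2 called 0, 1 and 2 of them upward, and edgeR scaled to library totals did the same. Over all 14779 tested loci DESeq2 called 294 upward and edgeR with library totals 181. In the fit of the 9 libraries alone 23 of the 25 photosystem genes, 5 of the 6 carriers, 12 of the 17 Calvin-Benson genes and 16 of the 20 photorespiration genes passed upward. The share of all tested loci that did so was 6.12%. LHCB3, an antenna protein of photosystem II, had 2332, 1919 and 2206 CPM in leaf 9 and 2318, 2032 and 2301 CPM in leaf 10, against 1863, 1746 and 1879 CPM in 5 mm leaves, without overlap, and its log2 fold change was 0.26 (adjusted p = 0.741). RBCS1A, a small subunit of Rubisco, had 5899, 3450 and 5450 CPM in leaf 9 and 5123, 3809 and 5870 CPM in leaf 10, against 2811, 3655 and 3062 CPM in 5 mm leaves. Its groups overlapped through the leaf 9 library numbered 2, and its log2 fold change of 0.64 was not called (adjusted p = 0.285).

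HCEF1, the plastid fructose-1,6-bisphosphatase of the Calvin-Benson cycle, had 183, 128 and 157 CPM in leaf 9 and 159, 133 and 165 CPM in leaf 10, against 94.1, 85.3 and 73.9 CPM in 5 mm leaves. Its groups did not overlap, and its log2 fold change of 0.87 was just outside the threshold (adjusted p = 0.061), while DESeq2 called it (adjusted p = 0.0122). HPR1, the peroxisomal hydroxypyruvate reductase of photorespiration, averaged 236 ± 44.4 CPM at 7.5 mm (SD, n = 6) and 140.8 ± 20.6 CPM at 5 mm (SD, n = 3), with a log2 fold change of 0.75 (adjusted p = 0.0703, or 0.0166 by DESeq2). RCA, Rubisco activase, had a log2 fold change of 0.41 with overlapping groups (adjusted p = 0.554). In PNSL2, RBCS1A, HCEF1, HPR1 and RCA the libraries numbered 2 were the lowest of the 3 in each leaf position.

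The list of C4-type enzymes and carriers, kept because the study contrasts photosynthetic types, had a median of 0.07 over 22 members. In edgeR's fit of all libraries 0 were called and 7 were higher at an unadjusted p under 0.05, as were 6.29% of all tested loci. Upward calls numbered 5 by DESeq2, 2 with library totals, 1 with RLE scaling and 8 in the fit of the 9 alone. Over all 14779 tested loci they numbered 294 by DESeq2, 181 with library totals and 198 with RLE scaling. They were 6.12% of all tested loci in the fit of the 9 alone. BCA1, the plastid carbonic anhydrase of leaves, had 339, 141 and 255 CPM in leaf 9 and 285, 155 and 273 CPM in leaf 10, against 95.2, 116 and 88.2 CPM in 5 mm leaves. All 6 were above all 3, and its log2 fold change of 1.27 was not called by edgeR (adjusted p = 0.0685) but was by DESeq2 (adjusted p = 0.0101). PPC2, a phosphoenolpyruvate carboxylase, and NAD-ME1, the NAD-dependent malic enzyme, had log2 fold changes of 0.02 and -0.05 with overlapping groups. The 17 chlorophyll synthesis genes had a median of 0.14 and the 20 chloroplast biogenesis genes one of 0.10, with 0 calls in either list in the fit of all libraries. In the fit of the 9 alone 2 and 4 of them passed upward, as did 6.12% of all tested loci. HCF152, an RNA-binding protein that processes chloroplast transcripts and belongs to none of the lists, was called upward at 0.55 (adjusted p = 0.0408).

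None of the growth and cell-division genes was called by edgeR in the fit of all libraries. The 9 ribosome biogenesis genes had a median log2 fold change of -0.45, and all 9 were negative. In 7 of them every 7.5 mm library was below every 5 mm library, against 7.17% of all tested loci. FIB2, a fibrillarin that modifies ribosomal RNA in the nucleolus, had 218, 185 and 179 CPM in leaf 9 and 212, 181 and 171 CPM in leaf 10, against 263, 298 and 243 CPM in 5 mm leaves. Its log2 fold change was -0.49 (adjusted p = 0.26). APUM24, a Pumilio protein needed for ribosomal RNA processing, was nearest to a call at -0.58 (adjusted p = 0.088). The 21 cytosolic ribosomal protein genes had a median of -0.21, and the 14 growth regulators of young leaves one of -0.29. In the fit of the 9 libraries alone 7 of the 9 ribosome biogenesis genes, 4 of 13 growth regulators and 3 of the 21 ribosomal protein genes passed downward. Of 14 mitosis and cytokinesis genes 2 passed upward. In that fit 3% of all tested loci passed downward and 6.12% upward.

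GRF5, a growth-regulating factor that promotes leaf cell proliferation, had 20.8, 28.8 and 20.4 CPM in leaf 9 and 19.5, 25.9 and 18.9 CPM in leaf 10, against 30.5, 30.04 and 35.4 CPM in 5 mm leaves. All 6 were below all 3, with the libraries numbered 2 highest in each position, and the log2 fold change of -0.51 was not called (adjusted p = 0.262). AN3, its co-activator, had -0.11 with overlapping groups. The 15 DNA replication genes had a median of -0.12 and the 14 mitosis and cytokinesis genes, all of them positive, one of 0.09. MCM5, a subunit of the replication helicase, averaged 357 ± 22.1 CPM at 7.5 mm (SD, n = 6) and 371 ± 47.99 CPM at 5 mm (SD, n = 3). CYCB1;1, a mitotic cyclin, averaged 71.0 ± 4.79 CPM at 7.5 mm and 59.2 ± 2.06 CPM at 5 mm, a log2 fold change of 0.26 (adjusted p = 0.753). In the fit of the 9 libraries alone it passed (adjusted p = 0.0213), as did KNOLLE, a syntaxin of cell plate formation (adjusted p = 0.0227).

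Meristem genes stood higher in one library of 7.5 mm leaves than in the other 5. STM, the homeobox gene of the shoot meristem, had 0.34, 0.68 and 0.44 CPM in leaf 9 and 4.83, 0.80 and 0.97 CPM in leaf 10, against 0.36, 0.66 and 0.53 CPM in 5 mm leaves. KNAT6, a related boundary gene, had 4.92 CPM in the same leaf 10 library numbered 1 and 0.68 to 1.24 CPM in the other 5. CYP78A5, a cytochrome P450 that stimulates organ growth from the meristem edge, had 73.8 CPM there and 9.56 to 20.7 CPM in the other 5. The summed level of the 8 tested meristem and boundary genes ranged from 14.4 to 32.1 CPM at 7.5 mm and from 14.6 to 15.7 CPM at 5 mm, and 0 of the 8 were called. The part of these genes in the results above was not tested. Without leaf 10 replicate 1, 163 loci were called for 7.5 mm against 5 mm, 146 higher and 17 lower.

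The remaining lists held few calls, where 1.16% of all tested loci rose and 0.217% fell. KCS1, a 3-ketoacyl-CoA synthase that elongates the fatty acids of cuticular wax, was the single call among 19 cuticle genes. It had 195, 184 and 174 CPM in leaf 9 and 177, 186 and 176 CPM in leaf 10, against 118, 134 and 119 CPM in 5 mm leaves. These groups did not overlap, and it rose by 0.56 ± 0.15 on the log2 scale (adjusted p = 0.0428). In the enzyme family, counted after its values had been seen, 3 of 15 tested synthases rose, KCS1, KCS14 (0.95) and KCS15 (0.75), 0 fell and the median was 0.29. With any 1 library left out the family held 0 or 1 call and KCS1 lost its call, and 1 synthase was called with library totals or with summed counts.

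BAM3, the plastid beta-amylase that releases maltose from leaf starch, was the single call among 20 starch and sucrose genes. It had 181, 69.4 and 223 CPM in leaf 9 and 130, 65.7 and 219 CPM in leaf 10, against 45.5, 38.4 and 33.4 CPM in 5 mm leaves. The groups did not overlap, the libraries numbered 2 were again the lowest of each position, and the log2 fold change was 1.92 ± 0.45 (adjusted p = 0.0174). The list held 0 calls when any one of the 5 mm replicates, leaf 9 library 3 or leaf 10 library 3 was left out. YUC2, a flavin monooxygenase that makes auxin, was the single call among 16 auxin genes, and it fell. It had 4.26, 3.08 and 4.07 CPM in leaf 9 and 3.00, 2.96 and 4.42 CPM in leaf 10, against 6.16, 5.69 and 5.60 CPM in 5 mm leaves, a log2 fold change of -0.68 ± 0.16 (adjusted p = 0.0169). No auxin gene was called when any one of the 5 mm replicates was left out.

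Stomatal lineage genes gave 0 calls of 12 in edgeR and 1 in DESeq2, and 3 passed upward in the fit of the 9 libraries alone. In that fit 6.12% of all tested loci passed upward and 3% downward. EPFL9, the secreted peptide that promotes stomatal formation, averaged 12.0 ± 2.44 CPM at 7.5 mm (SD, n = 6) and 5.89 ± 1.59 CPM at 5 mm (SD, n = 3), a log2 fold change of 1.03 (adjusted p = 0.116 by edgeR and 0.0267 by DESeq2). MUTE, the factor that ends the asymmetric divisions of the lineage, had 0.75 (adjusted p = 0.56) with no overlap between lengths, while SPCH, which starts them, had -0.13 and FAMA, which acts in the last division, had 0.08. Wall loosening, xylem, vein, aquaporin, leaf polarity, guard cell and clock genes gave 0 calls in the fit of all libraries, with list medians between -0.13 and 0.04. In the fit of the 9 alone 1 wall loosening gene passed upward and 1 vein gene downward.

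**Figure D2:**
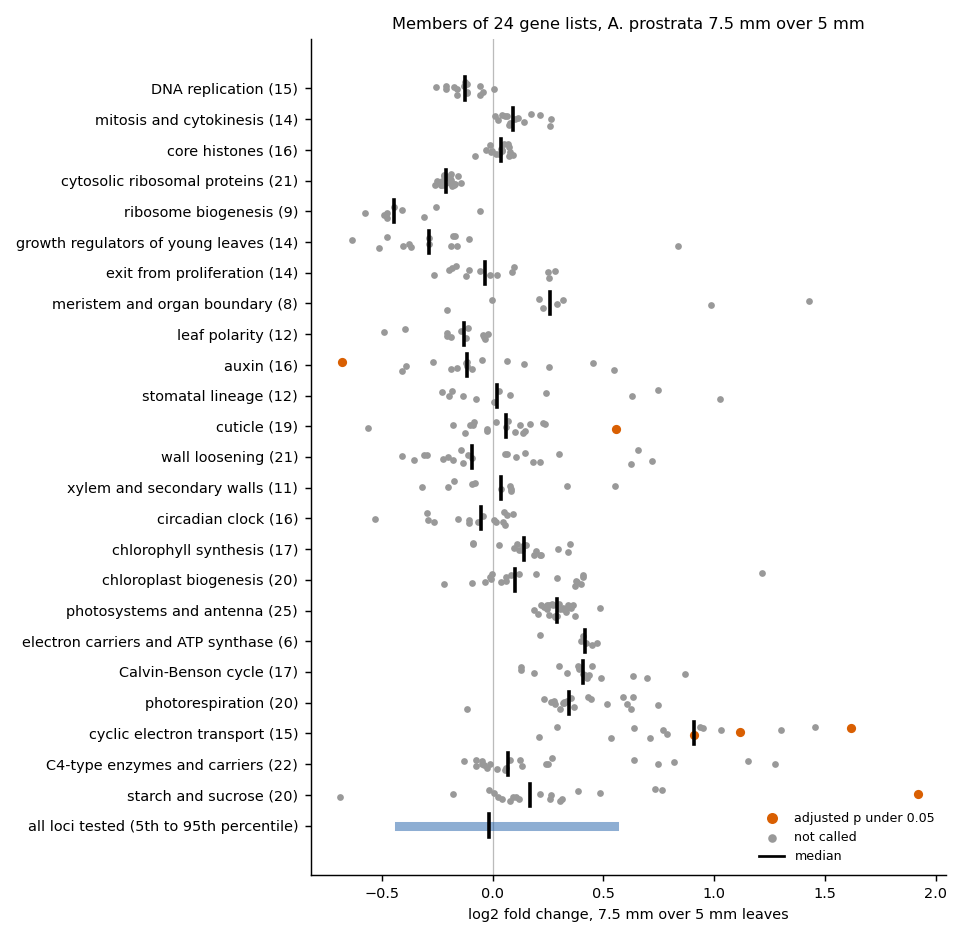
Log2 fold change, 7.5 mm over 5 mm leaves of A. prostrata, of each tested member of 24 gene lists (number tested in brackets), with called members in orange, the others in grey and the list median as a black bar, above the 5th to 95th percentile of all tested loci in blue. Called members are 3 of cyclic electron transport and 1 each of cuticle, starch and sucrose, and auxin, and the points of the photosystem and Calvin-Benson lists all lie above 0.

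Ethylene response factors and ethylene synthesis genes were among the calls. The ethylene response factor family, like the other families below, was counted after its values had been seen. Of all tested loci 1.16% rose and 0.217% fell. Of its 54 tested members 12 rose and 1 fell, with a median of 0.38, and of 8 ACC synthase loci 4 rose and 0 fell, with a median of 1.79. These upward counts became 4, 5 and 2 response factors and 0, 1 and 0 synthases without 5 mm replicates 1, 2 and 3. Leaving out 1 library of 7.5 mm leaves gave 9 to 14 response factors and 1 to 5 synthases, with 1 synthase without leaf 10 library 3 and 2 without leaf 9 library 3, and summing counts by column number gave 9 response factors and 3 synthases. AT5G21960, a member of the ERF/AP2 group, had the largest change of the loci named by rule. It had 17.7, 13.7 and 24.3 CPM in leaf 9 and 9.11, 14.7 and 16.7 CPM in leaf 10, against 0.89, 1.23 and 1.87 CPM in 5 mm leaves, with every 7.5 mm library well above every 5 mm library. It rose by 3.56 ± 0.67 on the log2 scale (adjusted p = 0.00321).

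ERF6, a stress-responsive activator, had 53.2, 35.0 and 37.9 CPM in leaf 9 and 44.8, 37.9 and 44.9 CPM in leaf 10, against 12.9, 15.3 and 12.9 CPM in 5 mm leaves, and rose by 1.63 (adjusted p = 0.0336). ERF8 and ERF10, which belong to the repressor type, rose by 1.63 (adjusted p = 0.00813) and 2.00 (adjusted p = 0.00596). ERF13 rose by 1.38 and TINY2 by 0.91. The single member that fell, AT3G25890, had a log2 fold change of -0.86 (adjusted p = 0.0286).

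ACS6, a stress-responsive ACC synthase, had 37.3, 19.99 and 39.5 CPM in leaf 9 and 30.6, 18.3 and 40.4 CPM in leaf 10, against 7.14, 10.0 and 6.76 CPM in 5 mm leaves. The libraries numbered 2 were the lowest of each position yet still above all 5 mm libraries, and the rise was 1.96 ± 0.46 (adjusted p = 0.0192). ACS1 had 16.8, 8.03 and 18.2 CPM in leaf 9 and 16.8, 7.05 and 18.9 CPM in leaf 10, against 4.29, 4.17 and 2.49 CPM in 5 mm leaves, and rose by 1.97 ± 0.42 (adjusted p = 0.00888). ACS7 rose by 1.83 (adjusted p = 0.0309). The fourth call was ACS3, which the deposited table describes as a pseudogene, so its reads cannot be assigned with certainty.

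Some calcium-binding and jasmonate genes also rose, where 1.16% of all tested loci did. Of 42 calmodulin-like and EF-hand loci 7 rose and 0 fell, while the median was 0.11. They were 2, 5 and 1 without 5 mm replicates 1, 2 and 3, and 6 to 8 without 1 library of 7.5 mm leaves. CML23, a calmodulin-like calcium sensor, had 105, 59.1 and 108 CPM in leaf 9 and 88.6, 65.5 and 106 CPM in leaf 10, against 23.5, 28.7 and 24.4 CPM in 5 mm leaves. It rose by 1.80 ± 0.39 (adjusted p = 0.00902), and the EF-hand locus AT1G18210 rose by 2.00 (adjusted p = 0.0069).

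Against 1.16% of all tested loci, 4 of 11 jasmonate signalling and synthesis loci rose, all of them regulators. None of them was called when any one of the 5 mm replicates was left out or in leaf 10 alone, and 1 was called in leaf 9 alone or with counts summed by column number. Leaving out 1 library of 7.5 mm leaves gave 1 to 4 calls, with 1 without leaf 9 library 1 or leaf 10 library 3 and 2 without leaf 9 library 3 or leaf 10 library 1. MYC2, the master transcription factor of jasmonate responses, averaged 58.5 ± 11.5 CPM at 7.5 mm (SD, n = 6) and 27.6 ± 5.0 CPM at 5 mm (SD, n = 3), a rise of 1.08 ± 0.27 (adjusted p = 0.0303). The bHLH loci AT4G17880 and AT5G46760 rose by 1.05 and 0.99, and JAZ1, a repressor that MYC factors induce, rose by 0.95. The synthesis genes LOX2, AOS and OPR3 had log2 fold changes of 0.41, 0.02 and 0.40, and none was called. Among 8 MAP kinase kinase kinases 3 rose, against the same 1.16% of all tested loci. The count of these kinases was 1, 1 and 2 without 5 mm replicates 1, 2 and 3. MAPKKK20, 1 of the 3, averaged 9.42 ± 1.92 CPM at 7.5 mm (SD, n = 6) and 1.67 ± 0.60 CPM at 5 mm (SD, n = 3). Its rise was 2.49 ± 0.41 (adjusted p = 0.000973).

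A list of stress and handling genes was read beside these groups. In edgeR's fit of all libraries it had 0 calls of 8, with 2 higher at an unadjusted p under 0.05, as were 6.29% of all tested loci. The list had 1 call, WRKY40, by DESeq2, with RLE scaling, with library totals and without the filter. Its median was -0.17, with 2 positive and 6 negative members, and its summed level was 2632 to 2830 CPM at 7.5 mm and 2989 to 3040 CPM at 5 mm. WRKY40 averaged 57.9 CPM at 7.5 mm and 16.1 CPM at 5 mm, so the sum hardly reflects it. The heat-shock genes HSP70, HSP101 and HSP90.1 had log2 fold changes of -0.11, -0.36 and -0.33. WRKY40, a wound- and pathogen-responsive factor, moved with the ethylene genes at 1.84 (adjusted p = 0.0569), with 65.0, 33.0 and 81.7 CPM in leaf 9 and 53.5, 36.2 and 78.1 CPM in leaf 10, against 15.7, 21.6 and 11.0 CPM in 5 mm leaves. WRKY33, the other positive member, had a log2 fold change of 0.75 with overlapping groups (adjusted p = 0.449). The part of harvest or handling in these rises was not tested.

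The rule for large changes also named loci outside these groups. NHL2, of a family related to the resistance component NDR1, averaged 13.8 ± 3.35 CPM at 7.5 mm and 3.39 ± 0.23 CPM at 5 mm and rose by 2.02 (adjusted p = 0.0309). HSPRO2, related to a nematode resistance gene of sugar beet, averaged 24.7 ± 7.74 CPM at 7.5 mm and 6.12 ± 1.34 CPM at 5 mm and rose by 2.01 (adjusted p = 0.0149). AT1G30370, a predicted lipase of the alpha/beta-hydrolase group, rose by 2.23 (adjusted p = 0.00682), and AT3G24420, another alpha/beta-hydrolase, by 1.83 (adjusted p = 0.00902). AT4G29780 and AT5G12010, which the deposited table leaves undescribed, rose by 2.86 (adjusted p = 0.0413) and 2.27 (adjusted p = 0.0206). In AT4G29780 the 3 libraries of 5 mm leaves held 3.75, 6.35 and 7.47 CPM, and the 6 libraries of 7.5 mm leaves 26.8 to 63.5 CPM.

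Galacturonic acid is the main sugar of pectin. UDP-glucuronate 4-epimerases convert UDP-glucuronic acid to UDP-galacturonic acid, and 4 of the 5 in the table rose, with a median of 0.46. The count was 2, 2 and 1 without 5 mm replicates 1, 2 and 3, 2 without leaf 9 library 3 or leaf 10 library 3, 1 in leaf 9 alone, 2 in leaf 10 alone and 3 with library totals. GAE1 had 313, 241 and 348 CPM in leaf 9 and 262, 272 and 343 CPM in leaf 10, against 102, 110 and 86.5 CPM in 5 mm leaves, and the lowest 7.5 mm library was far above the highest 5 mm library. It rose by 1.58 ± 0.23 on the log2 scale (adjusted p = 0.000178). GAE6 rose by 0.76 ± 0.17 (adjusted p = 0.013), GAE4 by 0.46 ± 0.11 (adjusted p = 0.0161) and GAE2 by 0.38 ± 0.10 (adjusted p = 0.0312), while GAE5 had 0.09 with overlapping groups (adjusted p = 0.713).

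Among 17 loci that the deposited table describes as galacturonosyltransferases or like them, which build such polymers, 2 rose, against 1.16% of all tested loci. These were GATL10 (0.86) and GATL2 (0.65), and the median of the 17 was 0.10. Neither was called when any one of the 5 mm replicates was left out, and 1 of them was without leaf 9 library 3. The table describes other members of the same enzyme group in other words, and the count leaves these out. Of them 2 that rose are named here after their values were seen. QUA1, a galacturonosyltransferase needed for pectin and cell adhesion, rose by 0.34 (adjusted p = 0.0151). PARVUS, a glycosyltransferase linked to xylan, averaged 33.6 ± 4.42 CPM at 7.5 mm and 20.4 ± 2.83 CPM at 5 mm and rose by 0.72 (adjusted p = 0.00269). The wall loosening list, which holds expansins and xyloglucan enzymes, gave 0 calls of 21 in the fit of all libraries, with a median of -0.09.

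Some genes known to respond to phosphate shortage rose. Of 19 such genes 6 rose and 0 fell, with a median of 0.49, while 1.16% of all tested loci rose. Without 5 mm replicate 3, 3 of the 19 rose. SQD2, which makes the sulfolipid that can replace phospholipids, had 190, 188 and 186 CPM in leaf 9 and 189, 182 and 195 CPM in leaf 10, against 111, 103 and 111 CPM in 5 mm leaves. The spread within each length was small, and the rise was 0.79 ± 0.12 (adjusted p = 0.000261). SPX1, a phosphate sensor that restrains the starvation response, had 17.8, 29.7 and 23.3 CPM in leaf 9 and 19.4, 29.2 and 25.1 CPM in leaf 10, against 11.4, 8.62 and 7.74 CPM in 5 mm leaves, and rose by 1.38 ± 0.21 (adjusted p = 0.000261). Here the libraries numbered 2 were the highest of each position.

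SRG3, a glycerophosphodiester phosphodiesterase, rose by 1.65 (adjusted p = 0.000973), and SPX2 and PS3, a glycerol-3-phosphate permease, by 0.92 and 0.98. The transporter loci PHO1 and PHT1;4 had log2 fold changes of -0.09 and 0.74 and were not called. Of 22 purple acid phosphatases, enzymes that release phosphate from organic compounds, 4 rose and 0 fell, with a median of 0.40. The share of all tested loci that rose was 1.16%. Without 5 mm replicate 2 or 3, 2 of the phosphatases rose. In the fit of the 9 libraries alone 13 passed upward, against 6.12% of all tested loci. PAP15, a phosphatase with activity on phytate, had 52.0, 65.1 and 51.3 CPM in leaf 9 and 47.5, 62.5 and 61.3 CPM in leaf 10, against 22.8, 17.8 and 14.9 CPM in 5 mm leaves. All 6 were far above the highest 5 mm library, and its rise of 1.62 ± 0.17 had the smallest adjusted p of all tested loci (1.61e-07). PAP13, a related phosphatase, rose by 2.101 ± 0.30 (adjusted p = 0.000177), and since the loci are similar their reads may be shared.

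**Figure D3:**
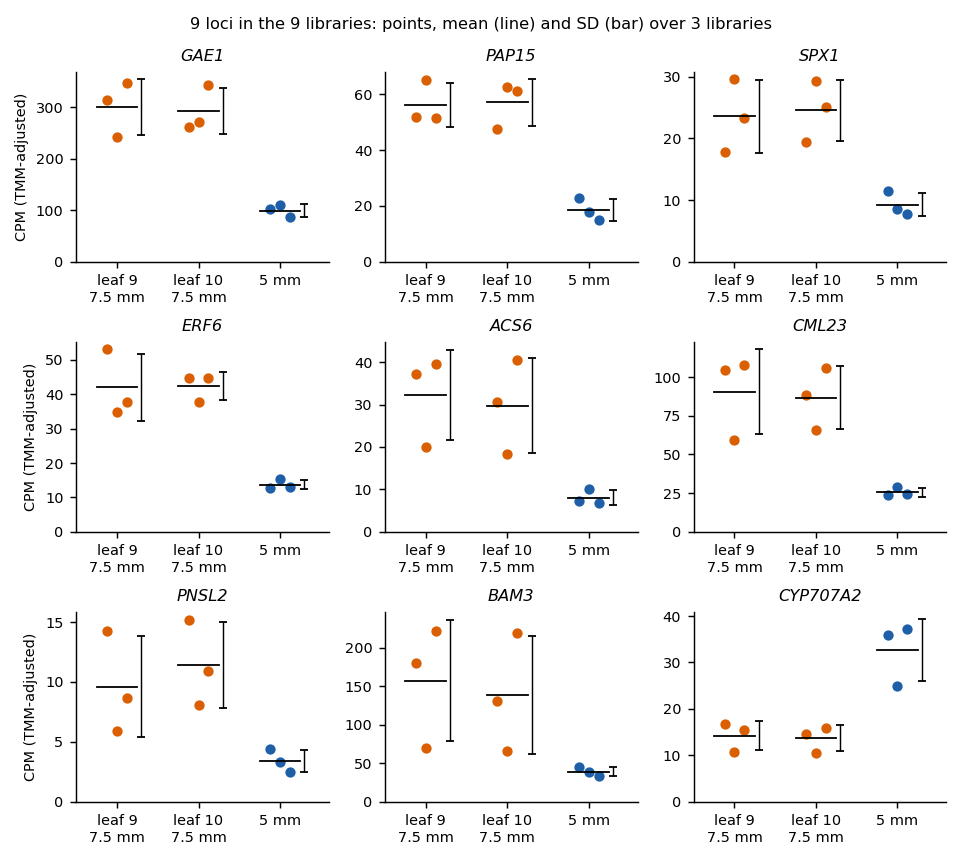
CPM (TMM-adjusted) of 9 loci in A. prostrata libraries of leaf 9 and leaf 10 at 7.5 mm (orange) and of 5 mm leaves (blue), with the mean as a line and the SD over 3 libraries as a bar. The orange points lie above the blue points in 8 panels and below them for CYP707A2, and in ACS6, CML23, PNSL2 and BAM3 the middle point of each leaf position, the library numbered 2, is the lowest.

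The loci that fell were fewer. CYP707A2, an abscisic acid 8'-hydroxylase that inactivates this hormone, had 16.7, 10.7 and 15.4 CPM in leaf 9 and 14.7, 10.6 and 15.9 CPM in leaf 10, against 35.9, 24.9 and 37.3 CPM in 5 mm leaves. The groups did not overlap, and it fell by 1.23 on the log2 scale with an SE of 0.24 (adjusted p = 0.00532). Of 10 abscisic acid hydroxylases and receptors, counted together after their values had been seen, 2 fell and 0 rose, with a median of -0.65. Of all tested loci 0.217% fell. None of the 10 was called without 5 mm replicate 3, and 1 was without 5 mm replicate 1 or 2, leaf 9 library 1 or 3, or leaf 10 library 1 or 3. The other member that fell was PYL2, a receptor with few counts, at 0.57 ± 0.16 CPM in 7.5 mm leaves (SD, n = 6) and 1.42 ± 0.33 CPM in 5 mm leaves (SD, n = 3). Its log2 fold change was -1.31 (adjusted p = 0.0341).

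EMB1873, described as a peptidyl-arginine deiminase family protein, had 8.0, 6.58 and 10.6 CPM in leaf 9 and 9.2, 6.89 and 11.0 CPM in leaf 10, against 15.6, 12.5 and 16.1 CPM in 5 mm leaves, and its log2 fold change was -0.76 (adjusted p = 0.012). The other loci of at least 10.0 CPM that fell with no overlap between lengths had smaller changes. RIK, a KH-domain RNA-binding protein, had -0.49 (adjusted p = 0.0275), APRR2, a pseudo-response regulator, -0.42 (adjusted p = 0.0408), the glycosyl hydrolase AT4G29360 -0.42 (adjusted p = 0.0347) and the RNA-binding AT5G08420 -0.35 (adjusted p = 0.0399). In these 4 all 7.5 mm libraries lay below all 5 mm libraries, as the rule that named them required.

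Of the 32 loci that fell, 12 were encoded in the mitochondrial genome and 5 were nuclear copies in the mitochondrial insertion of the Arabidopsis genome, which hold the same sequences, so the 17 loci showed 14 distinct count profiles. The mitochondrial share of all counts was 0.015% to 0.0197% in the 7.5 mm libraries and 0.0284%, 0.0238% and 0.0589% in the 5 mm libraries. The plastid-encoded share was 0.0208% to 0.031% in the 7.5 mm libraries and 0.0213%, 0.0295% and 0.082% in the 5 mm libraries. In both, 5 mm replicate 3 was the highest library. COX1, a subunit of cytochrome c oxidase, had 16.4, 9.31 and 7.97 CPM in leaf 9 and 9.83, 7.69 and 7.33 CPM in leaf 10, against 30.5, 11.5 and 25.3 CPM in 5 mm leaves. Its groups overlapped, and its log2 fold change was -1.22 (adjusted p = 0.0341). The 54 tested mitochondrion-encoded loci had a median of -1.12, which was -0.38 without 5 mm replicate 3, and then 1 of them was called. The 84 plastid-encoded loci had a median of -0.65 and 0 calls, and their median was 0.16 without that library. The part of this library's organelle share in the calls was not tested beyond leaving it out.

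Along the age series of A. prostrata, from 1 to 18 mm, the 7.5 mm stage was often an extreme for the loci that rose. Of the 171, 106 (62.0%) had their highest group mean at 7.5 mm, against 17.59% of all loci with a positive log2 fold change, and of the 32 that fell 18 (56.3%) had their lowest mean there, against 14.2% of those with a negative one. These shares share the 7.5 mm libraries with the test and are given as a description. GAE1 averaged 296.5 CPM at 7.5 mm and 99.5 CPM at 5 mm, and its means were 65.3 and 55.3 CPM in the bottom and top parts of 15 mm leaves. ERF6 averaged 42.3 CPM at 7.5 mm and 13.7 CPM at 5 mm, and 7.32 and 6.03 CPM in the 2 parts at 15 mm.

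The photosynthetic genes had another course. PNSL2 averaged 10.5 CPM at 7.5 mm and 3.39 CPM at 5 mm, and reached 65.6 and 94.5 CPM in the bottom and top parts at 15 mm. RBCS1A averaged 4933 CPM at 7.5 mm and 3176 CPM at 5 mm, and reached 34370 and 44290 CPM in those parts. GRF5, which was not called here, averaged 22.4 CPM at 7.5 mm and 32.0 CPM at 5 mm, with 7.92 and 4.42 CPM in the bottom and top parts at 15 mm.

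**Figure D4:**
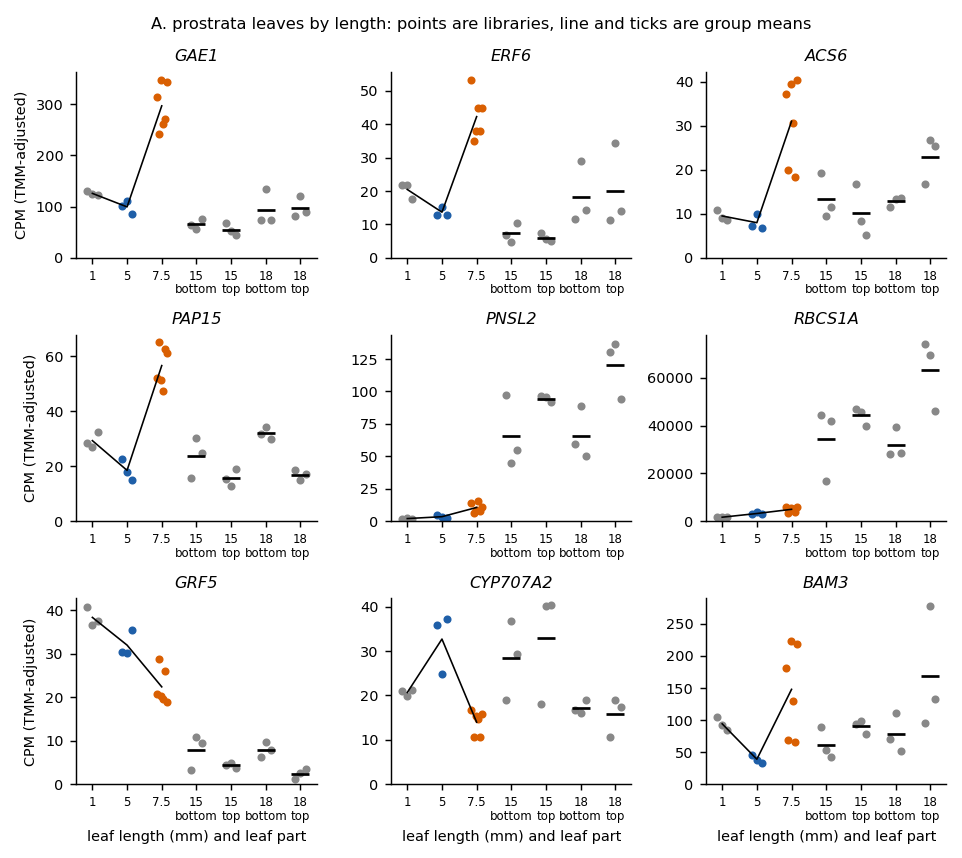
CPM (TMM-adjusted) of 9 loci in A. prostrata leaves by length in mm and, from 15 mm, by leaf part, with each library as a point, 5 mm in blue, 7.5 mm in orange and the other groups in grey, lines joining the means of the 3 whole-leaf lengths and ticks at the means of leaf parts. GAE1, ERF6, ACS6 and PAP15 peak at 7.5 mm, while PNSL2 and RBCS1A are far higher in the parts of 15 and 18 mm leaves.

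Leaf 9 and leaf 10 of the same length were also compared with each other. At an adjusted p under 0.05, 0 of 14779 loci were called between them by edgeR, against 2 by DESeq2, while 153 had an unadjusted p under 0.05 in edgeR, which is 1.04% of the loci. That is below the share of 0.05 expected if no locus differed, so the lack of calls does not show that the positions are alike. With the column number as a replicate block in a fit of these 6 libraries, chosen after seeing the data, 27 loci were higher and 28 lower in leaf 9, of 13831 tested, against 0 without the block. Set separately against the same 3 libraries of 5 mm leaves, leaf 9 gave 106 loci higher (0.717%) and 14 lower (0.0947%), and leaf 10 gave 60 higher (0.406%) and 2 lower (0.0135%). Because both share the 5 mm libraries, these calls are not independent. PAP15 rose by 1.60 in leaf 9 and 1.63 in leaf 10, and GAE1 by 1.60 and 1.56.

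The same growth step in A. rosea, with 6 libraries at 7.5 mm and 3 at 5 mm, gave 1 locus higher and 1 lower (0.00677% each), with 547 loci (3.7%) at an unadjusted p under 0.05. The difference between the steps of the 2 species was tested as an interaction, and 1 locus of 14779 (0.00677%) passed, PAP15, with 427 (2.89%) at an unadjusted p under 0.05 and 1 call by DESeq2. Both unadjusted shares, 3.7% and 2.89%, are below the share of 0.05 expected if no locus differed. The difference was not tested in a fit without the other leaf stages. The lack of other calls therefore does not show that the 2 steps are alike. In A. rosea PAP15 had 23.5, 22.2 and 32.4 CPM in leaf 9 and 19.1, 27.9 and 22.5 CPM in leaf 10 at 7.5 mm, against 23.7, 20.7 and 24.0 CPM at 5 mm, and these groups overlapped. Its step was 1.62 in A. prostrata and 0.11 in A. rosea, a difference of 1.51 with a 95% interval of 1.05 to 1.97 (adjusted p = 0.00115).

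The other loci called in A. prostrata were not shown to differ in A. rosea, though their log2 fold changes were mostly smaller there. Of the 171 that rose in A. prostrata, 159 (93.0%) had a positive step in A. rosea, against 47.1% of all tested loci, and 85 had it with an unadjusted p under 0.05. Their median was 1.00 in A. prostrata, where they were chosen, and 0.46 in A. rosea, and 166 of the 171 had the larger step in A. prostrata. Of the 32 that fell, 25 were negative in A. rosea, with medians of -1.32 in A. prostrata and -0.27 in A. rosea. ACS6 had steps of 1.96 in A. prostrata and 1.68 in A. rosea, GAE1 of 1.58 and 0.88 in the same order, PNSL2 of 1.62 and 0.32, and CYP707A2 of -1.23 and -0.08.

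**Figure D5:**
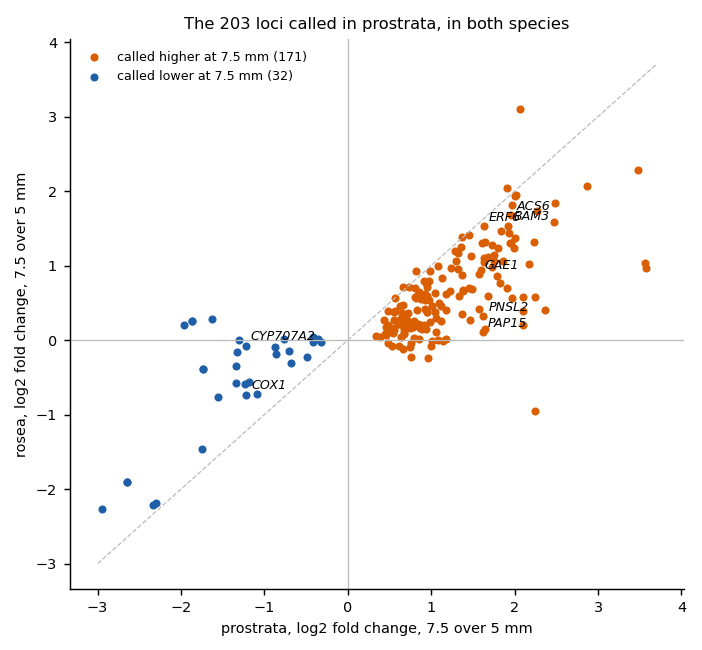
Log2 fold change, 7.5 mm over 5 mm, of the 203 loci called in A. prostrata, in A. prostrata (x axis, the comparison that chose them) and in A. rosea (y axis), with loci that rose in orange, loci that fell in blue and the line of equal change dashed. Most orange points lie above 0 in A. rosea and below the dashed line, and PAP15 lies near 0 on the y axis.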

How the data were processed

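RNA was sequenced from whole leaves of A. prostrata, and the authors deposited one table of read counts per library and Arabidopsis thaliana locus, beside RPM values that were not used. Libraries were made with a TruSeq RNA v2 kit per the labels, whose protocols name read lengths and shared lanes without tying them to libraries and do not state whether strand was used. The submitters' processing notes name CASAVA, DESeq2 and TAIR10 without versions, and which aligner and counter were run is not given in the sources used here. Reads of both species were thus counted on loci of another plant family, and reads of one Atriplex gene may be spread over paralogs. Of the tested loci 65 had the same counts as another locus in every library.

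The table lists 21976 loci, of which 5 had values moved out of their columns and were left out. Of 60 count columns 48 were matched to labelled samples, and 72 columns of per-sample values (12 of counts, 60 of RPM) were not used. The leaf 9 columns are numbered differently from their labels, so they were matched as a group. The F1 hybrid was not analysed here.

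Counts were tested with edgeR 4.0.16 in R 4.3.3 (limma 3.58.1), with its expression filter, TMM scaling, quasi-likelihood dispersions and Benjamini-Hochberg adjustment over 14779 loci, in 1 fit of 48 libraries (32 residual degrees of freedom) with 1 term per group. The 7.5 mm level is the mean of leaf 9 and leaf 10. The test was tried on simulated counts of the 9 compared libraries alone, drawn independently with 1 common spread. That trial does not cover the fit of 48 libraries, or leaf 9 and leaf 10 columns that deviate together. Fold changes are on the log2 scale with SE taken as the log2 fold change over the root of F. Replicates are biological per the series' design text. The labels do not say whether leaf 9 and leaf 10 came from the same plants, so the p-values cover only the differences seen among these libraries. Numbers shared by leaf 10 and 5 mm libraries did not pair them, with correlations of deviations of -0.0999 to 0.0554.

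The members and gene lists were chosen with earlier results of these data known. The 32 lists name 578 loci, of which 448 are in the table and 433 were tested. One list locus whose entry names another gene was dropped, and EXPA1, CER1 and PSAD-1 were not analysed here. Named loci are the 12 called ones with the largest change in each direction (108 and 6 were eligible) with a mean of at least 10.0 CPM, no overlap between lengths and one sign in both positions, up to 4 called members of each list or its 2 largest changes, calls of the other comparisons at 10.0 CPM or more, and a fixed set of markers. Families were counted after their values had been seen.

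The alternatives were RLE scaling, library totals, 2 other filters, a fold threshold, organelle loci left out, the 9 libraries alone, each leaf position alone, a replicate block, DESeq2 1.42.0, and each library left out. Added after seeing the data were fits without the 2 libraries numbered 2, without mitochondrial loci and their copies, with leaf 9 and leaf 10 blocked by column number, and with their counts summed.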

Additional observations from a re-analysis of the deposited data

Results flagged for a closer look

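Among the 6 libraries of 7.5 mm leaves, 92 named loci were examined for a library far from the other 5, measured as the gap to the nearest library over the whole range of log2 levels, and 6 loci passed the critical value of 0.625. Chance alone passes about 1 locus in 20, and 6 of 92 is close to that share. KNAT6 and CYP78A5 were named because their changes were among the 2 largest of lists without calls. Leaf 10 library 1 adds to those changes, so the chance share need not hold for them. Meristem genes stood high in leaf 10 library 1, with gaps of 0.725 for KNAT6, 0.663 for STM and 0.625 for CYP78A5. In that library HDG2, an epidermal homeodomain factor, was the lowest, at 88.9 CPM against 100.1 to 105.5 CPM in the other 5 (0.696). FLA12, an arabinogalactan protein of secondary walls, was lowest in leaf 9 library 1, at 0.68 CPM against 1.37 to 1.60 CPM (0.807). NAD-ME1 was highest in leaf 9 library 2, at 109.6 CPM against 96.1 to 100.8 CPM (0.634).

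The growth step of PAP15 differed between species by the test of the difference itself, with 1.51 more on the log2 scale in A. prostrata than in A. rosea.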

How the results depend on the processing

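For 7.5 mm against 5 mm the 203 calls became 108 with the fold threshold, 1274 in the 9 libraries alone (196 of the 203 among them), 120 for leaf 9 only, 62 for leaf 10 only, 336 by DESeq2, 314 without both libraries numbered 2 (287 higher and 27 lower), and 126 with leaf 9 and leaf 10 counts summed by column number. The last 2 were chosen after seeing the data. RLE scaling, library totals, both other filters and organelle or mitochondrial loci left out kept it within 1.5 times, and no scaling moved the median of all loci by more than 0.1. Leaving out 1 library gave 28 to 242 calls, with 54, 91 and 28 without 5 mm replicates 1, 2 and 3, 110 without leaf 9 library 3 and 104 without leaf 10 library 3. Leaf 9 against leaf 10 gave 1 call in the 9 libraries alone, 2 by DESeq2, 0 to 1 with 1 library left out, and 55 with the replicate block by column number (0 without it in the same 6 libraries). Leaf 9 against 5 mm, with 120 calls, gave 75 with the fold threshold, 637 in the 9 libraries alone and 7 to 154 with 1 library left out. Leaf 10 against 5 mm, with 62 calls, gave 910 in the 9 libraries alone, 143 by DESeq2, 608 with the replicate block in its 6 libraries and 871 with no replicate block there, and 7 to 101 with 1 library left out. The difference between species kept PAP15, with 1 to 2 calls when 1 library was left out.

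Of 24 named called loci, 365 of 528 values under the alternatives passed, 163 did not and 0 changed sign. PAP15 and AT5G21960 passed in all 22 settings, while APRR2 and AT4G29360 lost the call in 18 and KCS1 in 15. Of 68 loci not called, 61 of 1490 values passed. No paired analysis was possible of leaf 9, or of both positions together, with the 5 mm libraries, because the leaf 9 columns do not carry their labels' numbers, and the sums by column number join leaf 9 to leaf 10 but neither to 5 mm. With 3 libraries of 5 mm leaves, each of them bears on every call, and depth limits loci at a few counts.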

Other observations

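The 55 loci that separated leaf 9 from leaf 10 under the block by column number had small differences apart from a few. Gene lengths were not analysed here. SYD and NUA, among the loci higher in leaf 9, are known as very large proteins. The histone AT2G37470, 1 of those lower in leaf 9, is known as a small one. These examples were picked from the 55 after their values had been seen, and the sizes of the others were not examined. The part of length in these differences was not tested. At a mean of 10.0 CPM or more, the loci highest in leaf 9 were ATIM (log2 fold change of leaf 9 over leaf 10 of 0.48), SYD, a chromatin remodeller (0.43), the calmodulin-binding locus AT4G21820 (0.37), NUA, a nuclear pore protein (0.34), and POK2, a kinesin of the division plane (0.34). SYD had 81.0, 87.7 and 84.7 CPM in leaf 9 against 52.6, 61.3 and 72.9 CPM in leaf 10. The loci lowest in leaf 9 were CYP78A10 (-1.53), CYP78A5 (-1.15), the histone AT2G37470 (-0.70), APX5 (-0.49) and UBQ9, a ubiquitin (-0.43). AT2G37470 had 77.7, 87.2 and 92.7 CPM in leaf 9 against 136.9, 147.3 and 130 CPM in leaf 10, with no overlap. CYP78A10, like CYP78A5, was high in leaf 10 library 1, at 99.1 CPM, against 12.3, 20.4 and 7.88 CPM in leaf 9 and 18.2 and 16.0 CPM in the other libraries of leaf 10.

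Further loci that rose are named here after their values were seen. CZF1, a zinc finger protein of salt and pathogen responses, averaged 105.1 CPM at 7.5 mm and 34.3 CPM at 5 mm (log2 fold change 1.61). STZ, a zinc finger repressor induced by salt and cold, averaged 6.12 CPM at 7.5 mm and 1.60 CPM at 5 mm (1.94). MYB70 averaged 78.4 CPM at 7.5 mm and 35.9 CPM at 5 mm (1.13), and SCL13, a GRAS factor of light signalling, 37.8 CPM at 7.5 mm and 15.0 CPM at 5 mm (1.32). PIF7, a phytochrome-interacting factor of shade responses, averaged 8.43 CPM at 7.5 mm and 5.25 CPM at 5 mm (0.68). EXL4, a member of the EXORDIUM-like family, averaged 124.1 CPM at 7.5 mm and 38.7 CPM at 5 mm (1.68). ARO1, ARO2 and ARO3, armadillo-repeat proteins, rose by 0.65, 0.71 and 0.81.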
